A study of Mus musculus with 48 samples.

Results

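The mitochondrial ribosomal protein genes are the 78 genes of the count table named Mrpl or Mrps and a number, with or without a final a, b or c, out of 55376 genes. They were chosen by name alone, with no measured value. Of these, 49 carry the large subunit name Mrpl and 29 the small subunit name Mrps, and they lie on 17 chromosomes. All 78 passed the filter on low values, a mean count over the 8 libraries at least 10-fold above the background described below. That filter left 8272 genes for the tests.

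Mitochondria hold their own ribosomes, which translate the few messages of the mitochondrial genome into core subunits of the respiratory chain. The ribosomal RNAs of these ribosomes come from mitochondrial DNA, while every protein is encoded in the nucleus, made in the cytosol and imported. Members with low numbers mostly carry the number of a bacterial ribosomal protein family, and those with higher numbers are mostly additions of mitochondrial ribosomes. All 37 rows of the mitochondrial genome itself were listed at 0 counts, so only the nuclear side is described.

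Nascent RNA was measured in TCF2.2, an embryonic stem cell line of the mouse (strain label C57BL/6), grown in 2i medium. RNA made during 5 min with 500 µM 4-thiouridine was pulled down through that label and sequenced. The libraries fell into 4 groups of 2. Cells had BRM014, an inhibitor of the ATPases BRG1 (Smarca4) and BRM (Smarca2) of SWI/SNF, at 10 µM for 3 h, with DMSO for 3 h as its control. Other cells had been transduced with lentivirus for an shRNA to Chd4, the gene of NuRD's ATPase, and kept for 24 h in 1.5 µg/mL puromycin, with a scrambled shRNA handled alike as its control. Every group is the same cell line, and the labels do not say whether the libraries of a group came from separate cultures, so the p-values measure the spread between these libraries only. The title of the series asks how the effect of losing SWI/SNF or NuRD on expression goes with RNA polymerase II at promoters. Of that question, transcription of the members is described here.

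Libraries held 12977098 to 14582377 gene counts with BRM014, 16813866 to 17128981 with DMSO, 6982354 to 7461362 with the label Chd4 shRNA and 11298835 to 12026026 with scrambled shRNA. Background, the count per kb of exon on 1434 olfactory and vomeronasal receptor genes, made up 11.9% and 13.6% of the gene counts of libraries labelled Chd4 shRNA. It made up 1.45% to 2.38% elsewhere. Counts of Chd4 itself were 730 and 760 under the label Chd4 shRNA, against 806 and 618 under scrambled shRNA. Its log2 fold change was 0.57 ± 0.16 (SE; edgeR adjusted p = 0.00532). An shRNA acts on finished message, so counts of nascent RNA cannot show whether the knockdown worked. The knockdown was not tested, and the libraries are called by their label. Markers of embryonic stem cells summed to 19690 and 20390 normalised counts in libraries labelled Chd4 shRNA against 31920 and 33760 in scrambled shRNA, with 8 of 10 lower. They summed to 33340 to 35050 with BRM014 and 31280 to 37200 with DMSO, with 2 of 10 called lower and 0 higher by edgeR. Of all 8272 fitted genes, 20.5% were called lower in libraries labelled Chd4 shRNA and 4.63% with BRM014. None of the markers of primitive endoderm, trophectoderm, fibroblasts or 2-cell-like cells reached 10-fold over its group's background. Their part in the results below was not tested. In bulk RNA such as this, fewer cells of a type and less RNA per cell cannot be told apart.

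The members together took 44415 and 65253 counts with BRM014, 61595 and 63166 with DMSO, 20366 and 21502 in libraries labelled Chd4 shRNA and 29842 and 33038 with the scrambled shRNA. Below, a normalised count is a count divided by the relative library size that edgeR's TMM method gave over the 8272 genes. A value called higher or lower is thus relative to other expressed genes. The median normalised count over the members was 399 and 405.5 with BRM014 against 410.1 and 378.5 with DMSO. It was 340.3 and 326.1 in libraries labelled Chd4 shRNA against 364.9 and 399.9 with the scrambled shRNA. The BRM014 and DMSO medians overlapped, while both libraries labelled Chd4 shRNA lay below both scrambled ones. The members' summed normalised counts overlapped there. They were 37328 and 35803 in libraries labelled Chd4 shRNA against 36666 and 40654 with the scrambled shRNA.

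The levels of the members, as TMM-scaled CPM (counts scaled to library size) per kb of exon, spanned 42.7-fold. Mrpl52, of the large subunit, had the highest mean level over the 8 libraries at 127.5 and Mrpl3, of a family found in all ribosomes, the lowest at 2.99. The median member stood at 14.1 against 7.40 for the median of all fitted genes, and 61 of the 78 were above that gene. After Mrpl52 came Mrps21 at 71.8, Mrps24 at 63.8, Mrpl54 at 61.0, Mrps18c at 56.1 and Mrpl34 at 54.7, all with short exonic sequence. At the other end, above Mrpl3, were Mrpl48 (3.18), Mrps18a (4.30), Mrps22 (4.60), Mrpl1 of the L1 stalk (4.72) and Mrps26 (4.74). Exonic length enters this scale directly and reads from introns were not counted as exon, so the levels order the rows of this table rather than rates of synthesis.

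Mrpl52 was at 103.3 ± 7.82 with BRM014 and 129.9 ± 26.3 with DMSO, and at 170.3 ± 19.6 in libraries labelled Chd4 shRNA against 106.6 ± 11.2 in scrambled shRNA (SD, n = 2 each). Mrpl48, the lowest but for Mrpl3, was at 3.17 with BRM014 and 2.89 with DMSO. It was at 3.72 in libraries labelled Chd4 shRNA against 2.93 in scrambled shRNA. If spread by exonic length, background made up 30.5% of its counts in libraries labelled Chd4 shRNA. Its log2 fold change there was 0.34 as deposited and 0.15 with background subtracted (edgeR adjusted p = 0.0614 and 0.504). The order of the members was much the same in each pair of groups. The rank correlation of levels over the 78 genes was 0.987 between BRM014 and DMSO and 0.952 between libraries labelled Chd4 shRNA and scrambled shRNA. These coefficients share gene length between their points.

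**Figure D1:**
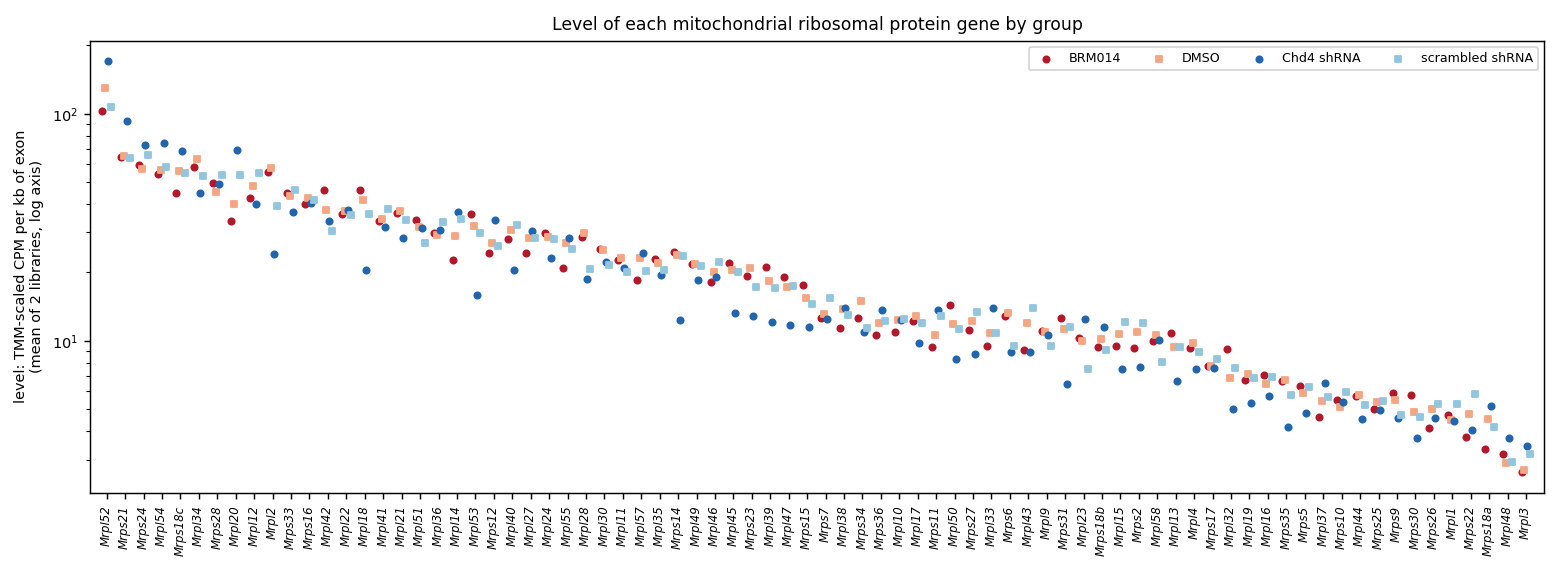
Mean level of each of the 78 members (TMM-scaled CPM per kb of exon, log axis; mean of 2 libraries) in the 4 groups, ordered by the mean over all libraries. The levels run from 127.5 for Mrpl52 to 2.99 for Mrpl3, and the 4 groups lie close together for most genes.

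The 3 genes named Mrps18 encode related proteins, of which the product of Mrps18a sits in the large subunit despite its name. Their mean levels were 4.30 for Mrps18a, 10.1 for Mrps18b and 56.1 for Mrps18c, a difference in level that held in all 4 groups. Mrps18c, at a mean count of 677, shares its strand and part of its span with Gm43511 (241.2). Some of its counts may therefore belong to that row.

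Sequence just upstream of the start is shown for 5 of the members that moved most in the comparison below and whose RefSeq start (GRCm38.p6) lies within 21 bases of the start in the count table. Each run is the 120 bases before the RefSeq start, 5′ to 3′ on the gene's strand, with matches to a searched motif in capitals. The first 3, chr1:160195095-160195214 (+), chr8:22411220-22411339 (+) and chr17:46646109-46646228 (+), belong to members that were lower in libraries labelled Chd4 shRNA. The last 2, chr14:54426789-54426908 (+) and chr3:95871515-95871634 (-), belong to members that were higher there.
Mrps14: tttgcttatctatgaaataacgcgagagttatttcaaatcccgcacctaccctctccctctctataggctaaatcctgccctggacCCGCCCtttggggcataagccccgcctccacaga
Mrps31: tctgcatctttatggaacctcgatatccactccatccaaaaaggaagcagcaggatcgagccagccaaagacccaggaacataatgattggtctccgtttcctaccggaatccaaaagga
Mrpl2: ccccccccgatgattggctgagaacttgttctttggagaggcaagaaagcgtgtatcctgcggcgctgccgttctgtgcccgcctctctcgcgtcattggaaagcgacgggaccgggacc
Mrpl52: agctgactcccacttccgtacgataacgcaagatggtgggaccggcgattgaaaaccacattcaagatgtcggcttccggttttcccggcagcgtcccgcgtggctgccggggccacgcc
Mrps21: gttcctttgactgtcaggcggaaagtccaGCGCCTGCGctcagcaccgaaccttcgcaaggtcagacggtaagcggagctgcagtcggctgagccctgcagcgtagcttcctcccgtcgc
The capitals mark a match to the Sp motif in Mrps14 and to the NRF1 motif in Mrps21, and the other 3 runs hold no match.

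The motifs were those of factors known to act on nuclear genes for mitochondria, searched on both strands of the 300-base RefSeq promoters that 69 of the 78 members have. NRF1 (GCGCNTGCG) matched in 26.1% of these members, against 18.8% of the 4529 fitted genes with a promoter and 7.12% of all 27025 genes with one. The ETS motif bound by GABP (CCGGAAGT) matched in 17.4%, 11.9% and 4.31%, and YY1 (AAGATGGCG) in 11.6%, 4.75% and 1.64%, in the same order. Sp (GGGCGG) matched in 49.3%, below the 70.2% of fitted genes and above the 38.2% of all genes. The E-box (CACGTG), the motif of MYC family factors, matched in 7.25% of members, 13.0% of fitted genes and 8.09% of all genes. A gene with several promoters counted as matched if any of them matched. Some RefSeq starts lay far from the start in the count table. The distance was 7979 bases for Mrps24, 3185 for Mrpl35 and 2496 for Mrpl36, which each have a YY1 match. It was 17016 bases for Mrpl33 and 25171 for the promoter of Mrpl48 that holds its ETS match, and Mrpl33 has an ETS match too. These shares are a description, and no difference by motif was tested. In libraries labelled Chd4 shRNA, described below, 5 of the 18 members with an NRF1 match were called lower and 1 higher, against 13 and 3 of the 51 without, beside 20.5% lower and 19.4% higher among all 8272 fitted genes. For ETS it was 4 and 1 of 12 with a match against 14 and 3 of 57 without, and for YY1 1 and 0 of 8 against 17 and 4 of 61. The E-box had 1 and 0 of 5 against 17 and 4 of 64, and Sp 8 and 2 of 34 against 10 and 2 of 35. The median log2 fold changes with and without a match were -0.13 and -0.14 for NRF1, 0.11 and -0.15 for ETS, 0.11 and -0.21 for YY1, 0.21 and -0.18 for the E-box and -0.11 and -0.15 for Sp.

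With 3 h of BRM014, 1 member changed against DMSO. Mrps18a had 133 normalised counts in each BRM014 library against 181 and 179 in DMSO. Both BRM014 libraries were thus below both DMSO libraries, and the log2 fold change was -0.44 ± 0.13 (SE, n = 2 against 2; edgeR quasi-likelihood test, Benjamini-Hochberg adjusted p = 0.0337). That call was lost under 8 of 21 alternatives, while the log2 fold change stayed between -0.46 and -0.31. By edgeR its adjusted p was 1 on both ERCC scales, 0.0644 with TMM over all filtered genes, 0.181 with no filter on low counts, 0.0526 among genes at least 3-fold above background, 0.198 without BRM014 r1 and 0.299 without BRM014 r2, and by DESeq2 it was 0.204. The members' count of 0 higher and 1 lower stands beside 3.12% higher and 4.63% lower among all 8272 genes. Both BRM014 libraries lay above both DMSO libraries in 13 members and below them in 27. Of all 8272 genes, 2077 lay above and 1933 below, so such separation was common.

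The other 77 members did not pass the test with BRM014. At an unadjusted p under 0.05, 3 were higher and 10 lower by edgeR, against 853 and 910 of the 8272 fitted genes, and DESeq2 called 0 in either direction, beside 1.16% higher and 2.43% lower of all genes. Mrpl32, a large subunit protein that is matured by a mitochondrial protease, had 466 and 523 normalised counts with BRM014 against 349.5 and 390.1 with DMSO. Both BRM014 libraries were above both DMSO libraries, and the log2 fold change of 0.42 ± 0.13 had an edgeR adjusted p of 0.0555. Mrpl43 had 149 in each BRM014 library against 214 and 179 with DMSO (-0.40 ± 0.13, edgeR adjusted p = 0.0691). No member reached a log2 fold change of 0.5 in either direction. The median over the members was -0.04 against 0.01 over all fitted genes, with standard deviations over genes of 0.18 and 0.37. The median SE of a member was 0.13, so most of the members' spread was near the size of the error of 1 value. In simulated data with 2 libraries a group, 44 of 67 genes changed 1.5-fold and 56 of 67 changed 2-fold were called in this comparison.

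The count of lower members rested on single libraries here. It was 8 without DMSO r2, where 7.89% of all genes were lower, and 2 without DMSO r1, beside 4.33%. It was 0 without BRM014 r1, beside 2.88%, and 0 without BRM014 r2, beside 1.7%. By name, 0 of 49 Mrpl and 1 of 29 Mrps genes were called. That 1 gene is Mrps18a, whose product sits in the large subunit, so this split is by name only.

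**Figure D2:**
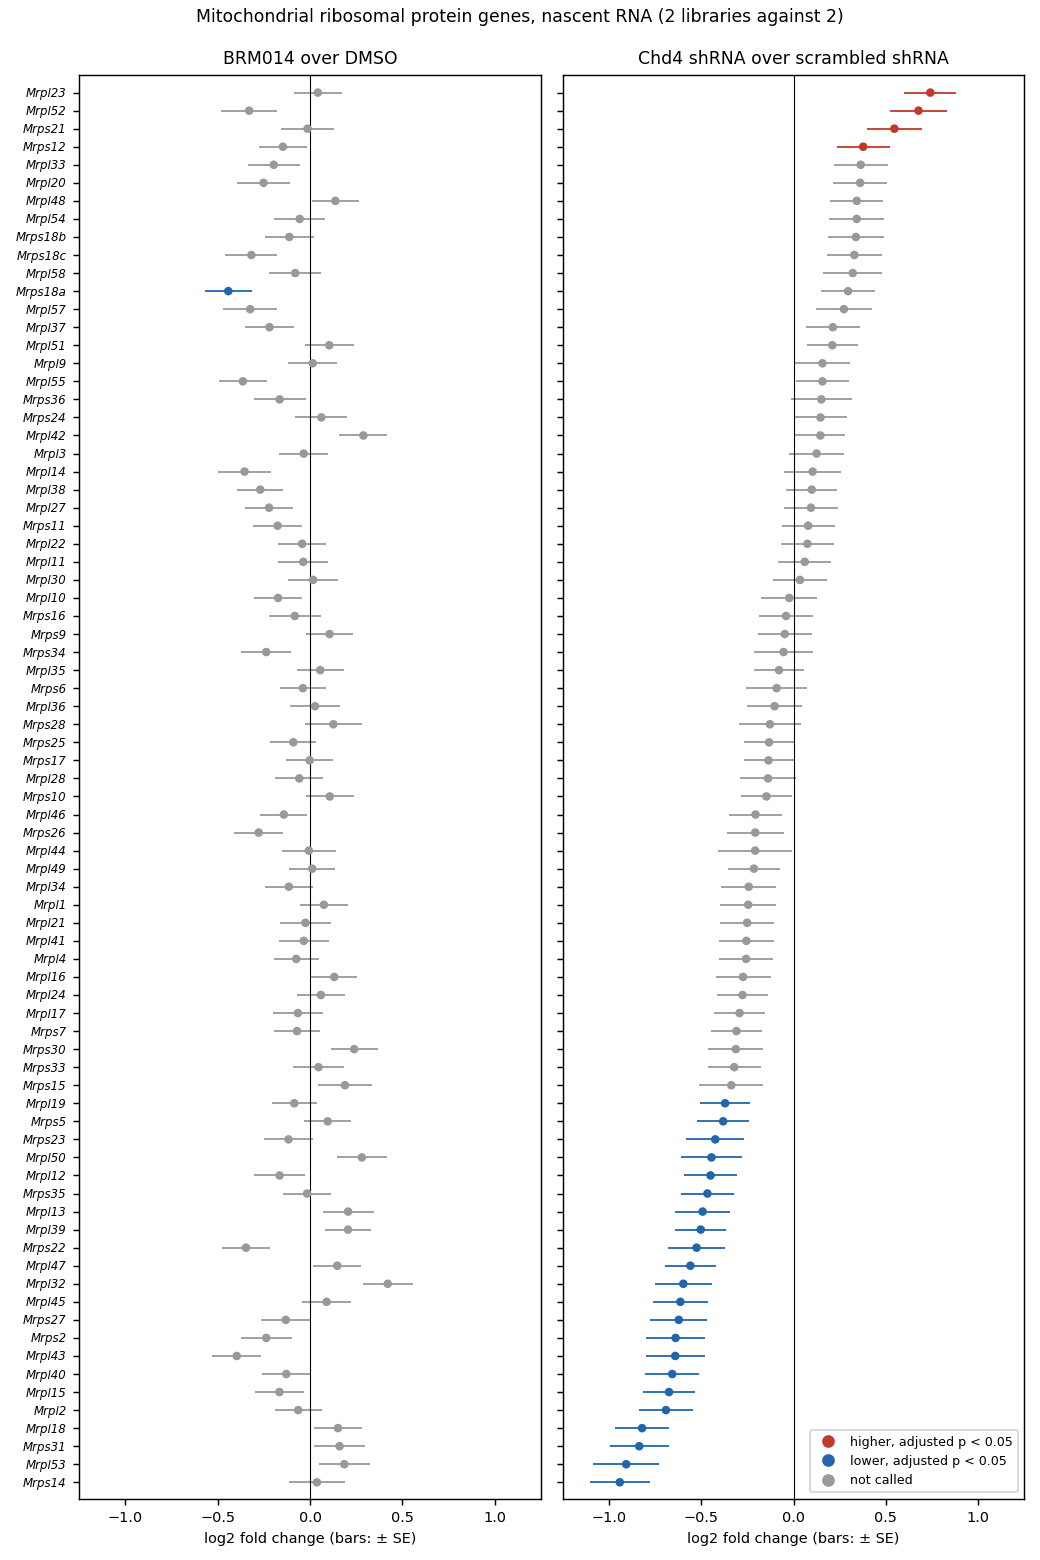
Log2 fold change of each of the 78 members (points, with bars of 1 SE) for BRM014 over DMSO on the left and Chd4 shRNA over scrambled shRNA on the right, in the order of the right panel. Colour marks members called at an edgeR adjusted p under 0.05: 1 lower on the left, and 4 higher and 22 lower on the right.

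In libraries labelled Chd4 shRNA members were called in both directions. Of the 78, 22 were lower and 4 higher than with the scrambled shRNA (edgeR, adjusted p under 0.05), beside 20.5% lower and 19.4% higher among all 8272 genes. The members' shares were 28.2% lower and 5.13% higher. Both libraries labelled Chd4 shRNA lay below both scrambled ones in 39 members and above them in 20. Of all 8272 genes, 3064 lay below and 2965 above, so such separation alone was common. Their median log2 fold change was -0.14, against -0.01 over all fitted genes, and 18 members had an absolute value of at least 0.5 but 0 reached 1. From the highest to the lowest member the values spanned 1.68 on the log2 scale. The standard deviation was 0.38 over members and 0.65 over all fitted genes.

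Mrps14, a conserved protein of the small subunit head (chromosome 1, 160195215 to 160202170, mm10), had 399 and 466 normalised counts in libraries labelled Chd4 shRNA against 785 and 876 in scrambled shRNA. Both libraries labelled Chd4 shRNA were far below both scrambled ones. The log2 fold change was -0.94 ± 0.16 (SE, n = 2 against 2; edgeR adjusted p = 8.59e-05), the lowest of the members. With BRM014 the same gene had 853 and 870 against 992 and 689 with DMSO, where the groups overlapped.

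Mrpl53, of the large subunit, had 130.2 and 140.6 normalised counts in libraries labelled Chd4 shRNA against 222 and 285.5 in scrambled shRNA (-0.91 ± 0.18, edgeR adjusted p = 0.000321). Its row, at a mean count of 285.2, shares strand and span with Gm42688 (317.5), so the counts of these rows may be shared. Mrps31, of the small subunit, had 239.6 and 219.7 against 344.0 and 476 (-0.84 ± 0.16, edgeR adjusted p = 0.00024). Neither gene's groups overlapped, although the scrambled libraries of Mrps31 lay far apart.

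Mrpl18, whose family binds ribosomal RNA in the central protuberance (chromosome 17, 12911349 to 12916345), had 305.5 and 314.7 normalised counts in libraries labelled Chd4 shRNA against 529.6 and 566 in scrambled shRNA (-0.82 ± 0.15, edgeR adjusted p = 0.000111). Its replicates were close in both groups. It overlaps the chaperonin gene Tcp1 on the other strand, which fell as well (-0.85 ± 0.14). Which strand was counted is not given in the sources used here, so reads of this pair cannot be told apart.

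Mrpl2, a core protein near the peptidyl transferase centre, had 305.5 and 305.9 normalised counts in libraries labelled Chd4 shRNA against 452 and 535 in scrambled shRNA (-0.69 ± 0.15, edgeR adjusted p = 0.000596). Mrpl15 had 686 and 694 against 1012 and 1191 (-0.67 ± 0.14), and Mrpl40 had 408 and 369 against 577.5 and 648.5 (-0.66 ± 0.15). All 3 had both libraries labelled Chd4 shRNA below both scrambled ones. The other members among the 12 with the smallest p were Mrpl43 (-0.64), Mrps2 (-0.64), Mrps27, a pentatricopeptide repeat protein (-0.62), Mrpl45, which lies at the exit of the large subunit toward the inner membrane (-0.61), and Mrpl47 (-0.56). On the other strand, Mrpl40 overlaps Gm28539, Mrpl43 overlaps Twnk, Mrpl47 overlaps Ndufb5 and Actl6a, and Mrps27 overlaps 6430562O15Rik.

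The 4 members that rose in libraries labelled Chd4 shRNA were Mrpl23, Mrpl52, Mrps21 and Mrps12. Mrpl23, of the family at the exit of the peptide tunnel (chromosome 7, 142532686 to 142540747), had 700 and 615 normalised counts there against 386 and 401 in scrambled shRNA. The log2 fold change was 0.74 ± 0.14 (SE, n = 2 against 2; edgeR adjusted p = 0.000224), and the groups were well apart. A pseudogene row named after it, Mrpl23-ps1 on chromosome 2 (74591330 to 74591909), had 545 and 478 against 280.1 and 305 (0.81 ± 0.15, edgeR adjusted p = 0.000125). Its mean count was 73.2% of that of Mrpl23, and near-identical copies can share reads, so the value of Mrpl23 is uncertain.

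Mrpl52 (chromosome 14, 54426909 to 54429756) had 2201 and 1870 normalised counts in libraries labelled Chd4 shRNA against 1180 and 1368 in scrambled shRNA (0.68 ± 0.15, edgeR adjusted p = 0.00123). Mrps21, of the small subunit, had 767 and 717 against 471 and 546 (0.55 ± 0.15, edgeR adjusted p = 0.00506). Mrps12, of the family at the decoding site, had 411 and 353 against 271.5 and 317.5 (0.38 ± 0.14, edgeR adjusted p = 0.0398). In all 3 both libraries labelled Chd4 shRNA were above both scrambled ones, by the least for Mrps12. Mrpl33 (0.36 ± 0.15, edgeR adjusted p = 0.0509) and Mrpl20 (0.36 ± 0.15, 0.0512) lay just outside the threshold.

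**Figure D3:**
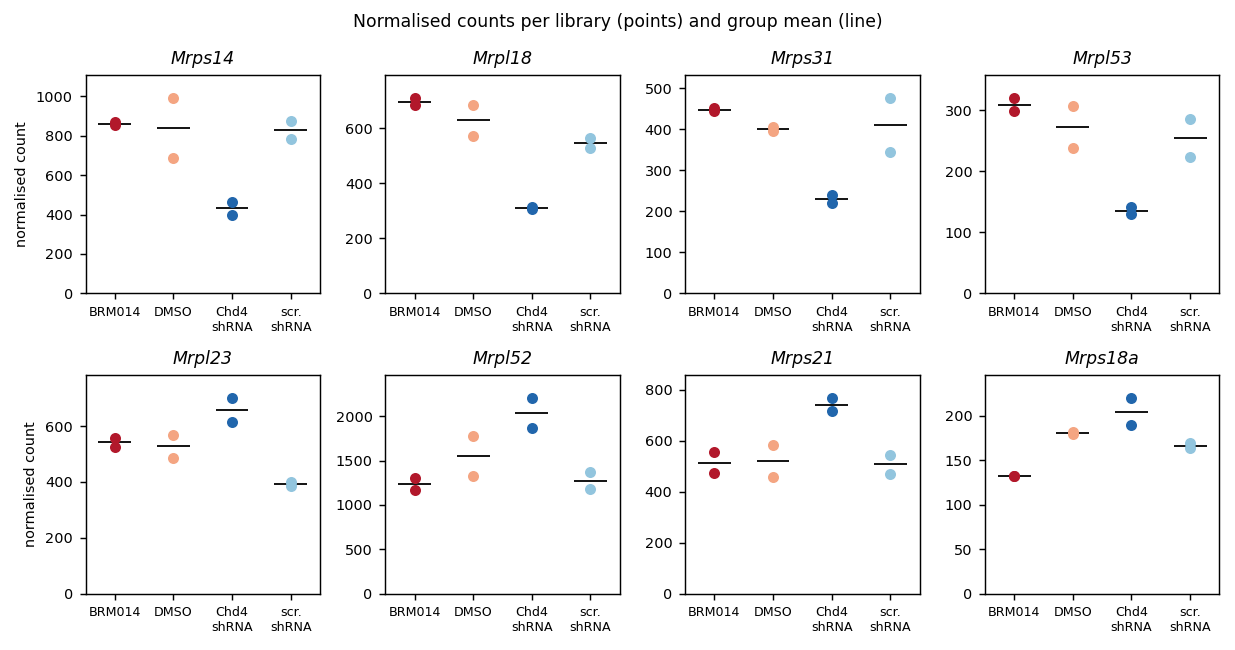
Normalised count of 8 members in each of the 8 libraries (points, from 0) with the group mean (line), by group. Mrps14, Mrpl18, Mrps31 and Mrpl53 are lower, and Mrpl23, Mrpl52 and Mrps21 higher, in both libraries labelled Chd4 shRNA than in both scrambled ones, and Mrps18a is lower in both BRM014 libraries than in both DMSO libraries.

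By subunit name, 14 of the 49 Mrpl genes were lower and 2 higher, with a median of -0.21. Of the 29 Mrps genes, 8 were lower and 2 higher, with a median of -0.14. As shares, 28.6% and 27.6% were lower and 4.08% and 6.9% higher, beside the 20.5% lower and 19.4% higher of all fitted genes. Among the 44 members numbered as bacterial families 10 were lower and 3 higher (median -0.12), and among the 34 with higher numbers 12 were lower and 1 higher (median -0.21). By level, the 26 highest members had 5 lower and 3 higher (median 0.02), the 26 in the middle 8 lower and 0 higher (-0.17) and the 26 lowest 9 lower and 1 higher (-0.23). No difference between these subgroups was tested.

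Background took a different share of each member's counts in libraries labelled Chd4 shRNA. If spread by exonic length it made up 0.665% of Mrpl52, 32.8% of Mrpl3 and 8.95% of the median member, and 3.19%, 8.97% and 21.7% at the median of the 26 highest, middle and lowest members by level. With that background subtracted, 20 members were lower and 12 higher, of which 19 and 4 were those called before, beside 19.6% and 20.7% of all fitted genes. The median became -0.06. Newly called higher were Mrpl20 (0.58), Mrpl33 (0.50), Mrpl42 (0.34), Mrpl51 (0.40), Mrpl54 (0.56), Mrpl57 (0.45), Mrps18b (0.46) and Mrps18c (0.55). Mrps30 (-0.54) was newly called lower. Mrpl52 was then at 0.90 ± 0.15 and Mrps14 at -0.83 ± 0.17, while Mrpl12, Mrpl50 and Mrps23 were no longer called. Mrpl12 was at -0.25 with background subtracted and -0.45 as deposited (edgeR adjusted p = 0.178 and 0.0148), Mrpl50 at -0.39 and -0.45 (0.083 and 0.0338) and Mrps23 at -0.31 and -0.42 (0.146 and 0.0329). Mrpl3, not called in either case, went to the other side of 0 (0.12 as deposited, -0.13 with background subtracted).

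**Figure D4:**
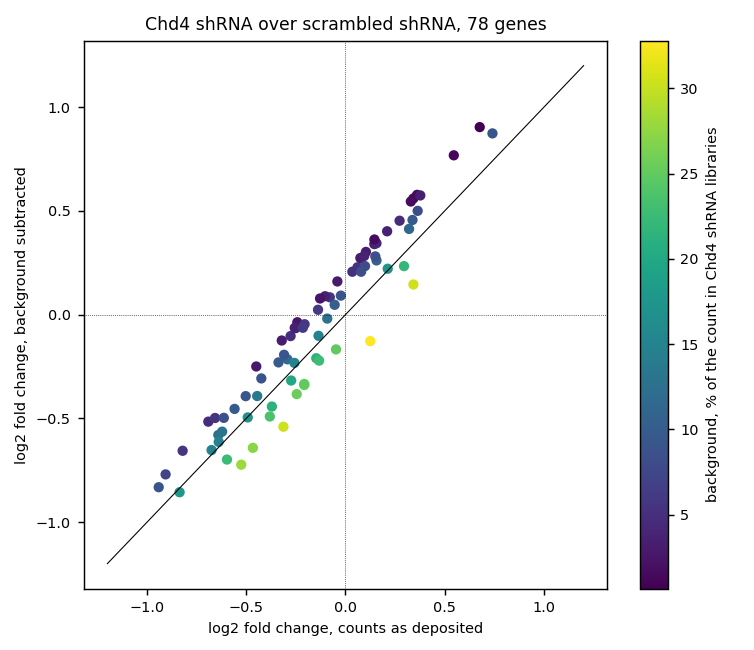
Log2 fold change of Chd4 shRNA over scrambled shRNA for the 78 members, from the counts as deposited (x) and after subtraction of background (y). The line marks equal values, and colour gives the share of background in libraries labelled Chd4 shRNA, from 0.665% to 32.8%, with low shares above the line and high shares near or below it.

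The directions in this comparison depend on the scale. With library sizes from the ERCC spike-in RNAs, added per cell, the median of all fitted genes itself shifted by 0.19 (TMM over the ERCC RNAs) or 0.59 (plain ERCC sums), and that of the members was 0.048 or 0.46. On the first, edgeR called 0 members in either direction, beside 0.689% of all genes higher and 0.0725% lower. On the second, 17 members were higher and 0 lower, beside 34.3% and 0.75%. With TMM over all genes at or above the count filter, background included, all 78 were lower and 0 higher, beside 91.3% lower and 0.653% higher.

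The choice of expressed genes mattered as well. Among genes at least 3-fold above background, 50 members were lower and 1 higher, beside 22.8% lower and 22.3% higher. Among genes at least 30-fold above it, 60 members were left, with 12 lower and 17 higher, beside 22.2% lower and 23.9% higher. Their median there was 0.078, above the -0.03 of all genes. DESeq2 called 18 lower and 4 higher in place of 22 and 4, beside 16.5% and 16.1%. Of the 22 members called lower, 7 kept the call under every alternative but the ERCC ones: Mrpl2, Mrpl15, Mrpl18, Mrpl40, Mrpl53, Mrps14 and Mrps31. Of the 4 called higher, 0 did. Among these alternatives was TMM over all filtered genes, which called all 78 members lower. It could thus keep no higher call and lose no lower one. Mrpl23 was lower there (-0.59) and kept its call under every other alternative without ERCC scaling. With plain ERCC sums, edgeR kept all 4 higher calls and 0 of the lower ones. The lower count was 11 without scrambled r3, beside 14% of all genes. It was 13 without Chd4 shRNA r1 and 13 without Chd4 shRNA r4, beside 12.7% and 13.3%. The higher count was 11 without DMSO r1 and 11 without DMSO r2, which enter through the shared scaling and spread, beside 23% and 22.7% of all genes.

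Of the members, 30 overlap another row that has at least 10% of their own count, 6 of them on the same strand and 25 on the other. The 48 without such an overlap had 14 lower and 4 higher, beside 20.5% and 19.4% of all fitted genes. Of the 22 called lower, 8 have one, and of the 4 called higher, 0 do. A fitted gene starting on the other strand within 1000 bases was found for 22 members, and for 20 of them it is not itself a member. Of those 20 partner genes 5 were higher and 6 lower in libraries labelled Chd4 shRNA. Member and partner were both called in 4 pairs. Both fell in 3 of these, Mrpl18 with Tcp1, Mrpl32 with the proteasome gene Psma2 (-0.60 and -0.48) and Mrps27 with Ptcd2 (-0.62 and -0.81). In the remaining pair Mrpl13 fell (-0.49) and Mtbp rose (0.67), and these rows overlap.

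The effects of BRM014 and of libraries labelled Chd4 shRNA were set against each other by an interaction term. The comparisons share no control library, though all 8 libraries share the scaling. The BRM014 effect was higher than the Chd4 shRNA effect in 14 members and lower in 10 (edgeR, adjusted p under 0.05), beside 15.4% of all fitted genes in each direction. The members with the smallest p were Mrpl18 (difference 0.97 ± 0.19, SE), Mrpl32 (1.02 ± 0.20), Mrpl53 (1.09 ± 0.23), Mrps31 (1.00 ± 0.21) and Mrpl52 (-1.01 ± 0.22). Mrpl32 was at 0.42 with BRM014 and at -0.60 in libraries labelled Chd4 shRNA, and Mrpl52 at -0.33 and 0.68. Mrps18a also differed (-0.74 ± 0.20, edgeR adjusted p = 0.00616), at -0.44 and 0.29. Over the 78 members the log2 fold changes of the comparisons had a Pearson r of -0.325 and a Spearman rho of -0.314, against -0.077 and -0.081 over all 8272 genes. Genes are not independent replicates, and no p is given.

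**Figure D5:**
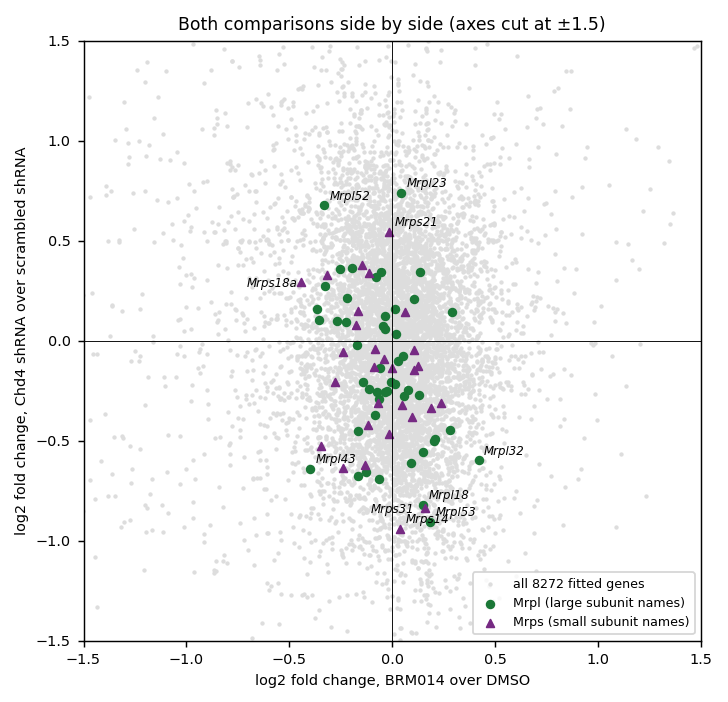
Log2 fold change with BRM014 (x) against that in libraries labelled Chd4 shRNA (y) for the 49 Mrpl and 29 Mrps genes, over all fitted genes in grey. The members spread between -0.44 and 0.42 along x and between -0.94 and 0.74 along y, with Mrpl32 and Mrpl52 on opposite sides of 0 in the comparisons.

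Other genes of mitochondrial translation were read from lists written from general knowledge. The counts of these short lists stand beside 20.5% lower and 19.4% higher among all fitted genes in libraries labelled Chd4 shRNA, and none of the lists was tested. Of 5 proteins of these ribosomes with other names, all fitted, Dap3 of the small subunit fell in libraries labelled Chd4 shRNA (-0.40 ± 0.14, edgeR adjusted p = 0.0268) and 0 rose. Of 6 fitted translation factors out of 11 listed, 2 fell, the initiation factor gene Mtif3 (-0.42 ± 0.15) and the elongation factor gene Tsfm (-0.45 ± 0.16). Of 16 fitted genes of ribosome assembly and ribosomal RNA modification out of 25, 5 fell and 0 rose, with the methyltransferase gene Mrm2 at -0.90 ± 0.20, the helicase gene Ddx28 at -0.66 ± 0.17 and Ngrn at -0.52 ± 0.16. Background made up 15.0% to 41.7% of the counts of Dap3, Mtif3, Tsfm, Mrm2 and Ddx28 in those libraries.

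Of 10 fitted genes of mitochondrial DNA maintenance and transcription out of 15, 3 fell: Tfam, which packages mitochondrial DNA and starts its transcription (-0.57 ± 0.15), the single-strand binding protein gene Ssbp1 (-0.53 ± 0.14) and the elongation factor gene Tefm (-0.51 ± 0.18). Lrpprc, which stabilises mitochondrial messages, rose (0.54 ± 0.14). Of 8 fitted mitochondrial aminoacyl-tRNA synthetase genes out of 16, Yars2 fell (-0.68 ± 0.15) and 0 rose. Background made up 23.1% of the counts of Lrpprc in libraries labelled Chd4 shRNA. It made up 26.5% for Tfam and for Yars2, 20.1% for Tefm and 10.5% for Ssbp1. With BRM014, edgeR called 0 genes in these 5 lists in either direction.

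Of 6 fitted regulators of nuclear genes for mitochondria out of 11, Mycn fell in both comparisons. It had 193 and 187 normalised counts with BRM014 against 310.0 and 361 with DMSO (-0.82 ± 0.13, edgeR adjusted p = 0.000116). In libraries labelled Chd4 shRNA it had 135 and 119.5 against 260.5 and 287 in scrambled shRNA (-1.10 ± 0.16, edgeR adjusted p = 1.26e-05). Yy1 (0.51 ± 0.14, edgeR adjusted p = 0.00487) and Gabpa (0.37 ± 0.15, edgeR adjusted p = 0.0485) rose in libraries labelled Chd4 shRNA, Gabpa close to the threshold. Background made up 22.8% of the counts of Yy1, 22.5% of Gabpa and 31.6% of Mycn in those libraries. The E-box and the motifs of these factors are among those counted above in the members' promoters, and no relation was tested.

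The cytosolic ribosomal protein genes and the nuclear-encoded respiratory chain genes, the lists nearest in function, were read in the same way in libraries labelled Chd4 shRNA. Of 83 fitted cytosolic ribosomal protein genes, 21 were higher and 7 lower, with a median of 0.09. Of 79 fitted respiratory chain genes, 23 were higher and 16 lower, with a median of 0.13. Higher and lower genes made up 25.3% and 8.43% of the cytosolic list and 29.1% and 20.3% of the respiratory chain list, beside 19.4% and 20.5% of all fitted genes. The members' 4 higher and 22 lower of 78, at a median of -0.14, stand beside these as a description, since no test between the lists was run. As given above, the members' median moved toward 0 with background subtracted. Among genes at least 30-fold above background, more members were higher than lower. The cytosolic and respiratory chain lists were not counted under these alternatives, so the contrast is described only for genes at least 10-fold above background, as deposited. With BRM014 the cytosolic genes had 0 called in either direction, and the respiratory chain had 1, Atp5k of the ATP synthase, which fell (-0.60, edgeR adjusted p = 0.0159).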

How the data were processed

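Nascent RNA was analysed in 8 libraries of 4 groups. The deposited counts are reads per gene, made by the authors. The submitters' processing notes name Trim Galore 0.6.4, STAR 2.7.1a with mm10, featureCounts and edgeR 3.32.1; the strand counted and the treatment of reads with several alignments are not given in the sources used here. Counts for 92 ERCC RNAs, added per cell number, were deposited for the same libraries. The series' 40 ChIP samples are not analysed here. Groups came from the sample labels; columns r4 of Chd4 shRNA and r3 of scrambled shRNA fit no title's number and were taken by group.

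One edgeR 4.0.16 fit (R 4.3.3, quasi-likelihood F test, group as the only term) held all 8 libraries on the 8272 genes whose mean count was at least 10-fold above background, the counts per kb over 5330.3 kb of exon of 1434 olfactory and vomeronasal receptor genes. Library sizes were TMM-scaled over these genes. Calls were made at an adjusted p under 0.05 (Benjamini-Hochberg, over all fitted genes); SEs came from the F statistic. With groups of 2 libraries the smallest two-sided p of an exact permutation test is 0.333, so none was used. The members, the lists, the filter and the tests were chosen with earlier results of these data known. Members were named by rule: up to 12 called members per comparison and direction and 5 in the difference by smallest p, the 6 highest and 6 lowest levels, and the Mrps18 genes; up to 3 called genes were named per other list. Mrpl12, Mrpl13, Mrpl20, Mrpl33, Mrpl35, Mrpl36, Mrpl42, Mrpl50, Mrpl51, Mrpl57, Mrps23, Mrps30, Mrpl23-ps1 and partner genes were named after their values were seen. So were Mrpl32 and Mrpl43 with BRM014.

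Alternatives were other scalings, DESeq2 1.42.0, other filters, subtraction of background by exonic length, a fit on 4 libraries, a robust fit, a replicate block and each library left out. The fit was tested on simulated data. In the Chd4 shRNA comparison 36 of 67 genes changed 1.5-fold and 58 of 67 changed 2-fold were called there, with 18 of 8072 unchanged genes. Far fewer genes changed there than were called in the data, and their spread was taken from the fit. The simulation therefore does not give the error rate of the real calls. Promoters are from RefSeq (GRCm38.p6). Figures were drawn with matplotlib 3.10.9.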

Additional observations from a re-analysis of the deposited data

How the results depend on the processing

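Counts of called members are given as higher and lower. For BRM014 against DMSO (0 and 1) they were 0 and 0 with both ERCC scales, DESeq2, no filter and genes 30-fold above background, and 1 and 0 with TMM over all genes that pass edgeR's filter (filterByExpr) and with genes 3-fold above background. The median of -0.04 became 0.11 with TMM over the ERCC RNAs, where that of all genes was 0.14. For Chd4 shRNA against scrambled shRNA (4 and 22) they were 0 and 0 with TMM over the ERCC RNAs (median 0.048), 17 and 0 with plain ERCC sums (0.46), 0 and 78 with TMM over all genes passing that filter (-1.48, with -1.34 for all genes), 1 and 50 at 3-fold (-0.53, with 0.08 for all genes), 17 and 12 at 30-fold (0.078), 12 and 20 with background subtracted, and 7 and 22 among genes that also pass filterByExpr, an alternative added after seeing the data. For the difference (14 and 10) they were 0 and 0 with TMM over the ERCC RNAs, 0 and 5 with plain ERCC sums, 77 and 0 with TMM over all genes, 43 and 1 at 3-fold and 8 and 16 at 30-fold.

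With each library left out, BRM014 against DMSO gave 0 to 1 higher and 0 to 8 lower (median -0.11 to -0.0014), Chd4 shRNA against scrambled shRNA 3 to 11 and 11 to 24 (-0.18 to -0.10), and the difference 7 to 17 and 2 to 13.

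With TMM over all genes passing that filter, the Chd4 shRNA value of 28 of the 78 members lay on the other side of 0 (lower), with plain ERCC sums that of 39 and with TMM over the ERCC RNAs that of 12 (higher), and at 3-fold above background that of 25 (lower), against at most 8 under any other alternative. Among members named by rule and called in either fit, the values that changed sign were these. With plain ERCC sums the Chd4 shRNA values were 0.0019 for Mrps2, 0.055 for Mrpl47 and 0.073 for Mrps22, and the differences -0.11 for Mrpl15 and -0.057 for Mrpl40. At 3-fold above background Mrps12 was at -0.0095. With TMM over all genes the Chd4 shRNA values were -1.04 for Mrps18a, -0.59 for Mrpl23, -0.66 for Mrpl52, -0.79 for Mrps21, -0.96 for Mrps12, -1.19 for Mrps24, -0.99 for Mrpl54, -1.005 for Mrps18c, -1.21 for Mrpl3, -0.99 for Mrpl48 and -0.996 for Mrps18b. The differences there were 0.65 for Mrps18a, 0.69 for Mrpl23, 0.38 for Mrpl52, 0.83 for Mrps21, 0.87 for Mrps12, 1.30 for Mrps24, 0.99 for Mrpl54, 0.74 for Mrps18c, 1.24 for Mrpl3, 1.19 for Mrpl48, 1.32 for Mrps26 and 0.95 for Mrps18b. That scale includes genes at background; the cause was not tested.

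With the replicate number as a block, BRM014 against DMSO gave 0 higher and 1 lower and the difference 12 and 8. The numbers did not pair the libraries (correlation of deviations -0.165); pairing them crosswise, added after seeing the data, gave 1 and 2, and 15 and 10. No paired analysis was possible because the columns for Chd4 shRNA (r1, r4) and scrambled shRNA (r1, r3) share fewer than 2 numbers. Groups held 2 libraries, with 20366 to 65253 member counts a library. In simulated data, 44 of 67 (BRM014) and 36 of 67 (Chd4 shRNA) genes changed 1.5-fold were called. The higher background of libraries labelled Chd4 shRNA was not simulated.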
